A study of Mus musculus with 32 samples.

Results

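Mitochondrially encoded mRNAs were followed through polysome profiles of 4T1 spheroids. The 10 genes described are mt-Nd1, mt-Nd2, mt-Nd4, mt-Nd5, mt-Nd6, mt-Cytb, mt-Co1, mt-Co2, mt-Co3 and mt-Atp6, taken by symbol from a count table of 17757 genes. The table holds 15 genes of the mitochondrial genome in all. The other 5 are the short mRNAs mt-Nd3, mt-Nd4l and mt-Atp8 and the rRNAs mt-Rnr1 and mt-Rnr2. 4T1 is a mouse mammary carcinoma cell line that spreads to the lung. Its spheroids were kept for 5 days in lung-like medium in 4 conditions. The reference condition, ASP shSCR, carried a scramble shRNA and received 700 μM aspartate, and NoASP shSCR carried the same shRNA without added aspartate. ASP shGRIN2D and ASP shDHPS received aspartate and carried an shRNA against Grin2d or Dhps. All lines were lentivirally transduced pools selected with puromycin, not clones, so each knockdown is an average over cells. The study's methods describe the 4 pellets of a condition as independent. Each was divided on a sucrose gradient into a polysomal fraction (more than 3 ribosomes on an mRNA) and a sub-polysomal fraction (fewer than 3), which gave 32 libraries of poly(A) RNA. Library totals ran from 12870563 to 25639437 counts.

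Mitochondria keep a small circular genome that encodes core subunits of the respiratory chain. Its mRNAs are made and translated inside the organelle by mitochondrial ribosomes, and cytosolic ribosomes do not translate them. A cytosolic polysome therefore has no known role in their translation. mt-Nd1, mt-Nd2, mt-Nd4, mt-Nd5 and mt-Nd6 encode membrane subunits of complex I, the NADH dehydrogenase. mt-Cytb encodes cytochrome b of complex III. mt-Co1, mt-Co2 and mt-Co3 encode the catalytic core of complex IV, cytochrome c oxidase, and mt-Atp6 encodes the membrane subunit of the ATP synthase that carries protons.

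The mRNAs have almost no untranslated sequence, and in the GENCODE annotation of GRCm38 every member began directly at its start codon. Starts are shown for the members that do not begin with ATG and, beside them, for mt-Nd6 and mt-Co1, which do. They are written 5′ to 3′ on the coding strand with the start codon in capitals.
mt-Nd1: GTGttctttattaatatcctaaca
mt-Nd2: ATAaatcctatcacccttgccatc
mt-Nd5: ATCaatattttcacaacctcaatc
mt-Nd6: ATGaataattatatttttgtttta
mt-Co1: ATGttcattaatcgttgattattc
mt-Nd1 lies at MT:2751-3707, mt-Nd2 at MT:3914-4951, mt-Nd5 at MT:11742-13565 and mt-Co1 at MT:5328-6872, all on the plus strand. mt-Nd6, at MT:13552-14070, is the only member read from the minus strand, and its end overlaps the end of mt-Nd5. It was also the member poorest in C (5.97%) and richest in T (43.7%) on its coding strand. Ends are shown where the annotated gene stops before the stop codon is complete. The poly(A) tail is known to supply the missing bases, and the capital marks the lone T.
mt-Co3: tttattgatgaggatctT
mt-Nd4: ttacaggcctgacaataT
mt-Cytb: tactaaaattatatccaT

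Some members share their sequence with copies of mitochondrial DNA in the nuclear genome. Pseudogenes next to each other on chromosome 1 were almost identical to 5 members, and the authors' quantification gave them large counts. Gm28661 (chr1:24614885-24615565 in GRCm38, minus strand) held mt-Co2 nearly whole, and all 651 of its 31-base stretches occurred in mt-Co2. The starts of the mRNA and the copy are the same.
mt-Co2: ATGgcctacccattccaacttggt
Gm28661: atggcctacccattccaacttggt
Gm28661 took a median of 73.9% of the counts of the pair (66.0% to 80.8% over 32 libraries). Gm28437, the copy of mt-Co3, took 64.7% (58.5% to 75.6%) and Gm10925, the copy of mt-Atp6, took 54.7% (42.5% to 67.1%). Gm29216, a partial copy of mt-Co1, took 9.06%, and Gm28439, a partial copy of mt-Nd4, took 1.09%. Reads from an mRNA and its copy cannot be told apart where the sequences are the same, and whether the copies are transcribed was not tested. Among the genes counted, no copy of this kind was found for mt-Nd1, mt-Nd2, mt-Nd5, mt-Nd6 or mt-Cytb. Weaker copies of mt-Nd2 (Gm13339) and mt-Nd5 (Gm11407 and Gm4076) took medians of 0.044%, 0% and 0.0013% of the counts of their pairs. A split with sequences outside the genes counted was not tested. Values below are as deposited unless the copies are said to be added.

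The knockdown targets were looked at first. Dhps encodes deoxyhypusine synthase, which makes the hypusine residue of the translation factor eIF5A. Its sub-polysomal level was 42.9, 33.2, 43.3 and 41.3 CPM (counts scaled to library totals of equal size, with TMM factors) in ASP shSCR and 9.98, 10.8, 10.2 and 8.96 CPM in ASP shDHPS. Every ASP shDHPS pellet was below every ASP shSCR pellet, and the fitted difference was −2.01 on the log2 scale (SE 0.16, edgeR quasi-likelihood test, adjusted p = 1.1e-08, n = 4 each). In the polysomal fraction it was −1.64 (SE 0.23, adjusted p = 0.017). Grin2d, a subunit gene of NMDA receptors, had 4.29, 3.74, 6.91 and 3.32 CPM in sub-polysomal ASP shSCR and 2.59, 1.87, 2.62 and 2.89 CPM in ASP shGRIN2D. Its difference was −0.88 (SE 0.29, edgeR adjusted p = 0.23), and −1.14 in the polysomal fraction (SE 0.33, adjusted p = 0.26). Neither passed the threshold of 0.05. The groups overlapped in neither fraction (polysomal 2.66 to 4.03 CPM in ASP shSCR and 1.06 to 2.39 CPM in ASP shGRIN2D). The share of all genes with such a gap was not counted. Grin2d counts were low (21 to 40 in polysomal ASP shGRIN2D). The study checked its knockdown lines by qPCR and western blot. The carcinoma label was checked against markers. Of 8 epithelial markers 7 were in the table, with Krt14 the lowest of them (median 72.4 CPM), and Krt5 was not. Krt8, Krt18 and Epcam had medians of 1088, 896 and 497 CPM, whereas Ptprc (leukocytes) and Pecam1 (endothelium) had medians of 0.26 and 0.21 CPM and Cd3e, Lyz2, Kdr and Dcn were not in the table. Of 11 markers of other cell types 3 were in the table, with a summed median of 11.1 CPM (5.26 to 26.7), most of it Cd68 (10.4). Esr1 and Erbb2, receptor genes of other breast tumours, had medians of 3.54 and 83.9 CPM. In such bulk libraries, fewer mitochondria per cell and less RNA per mitochondrion cannot be told apart.

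A single library stood apart before any comparison was made, the polysomal library of ASP shSCR replicate 1. It held 842017 counts of the 10 mRNAs, and the polysomal libraries of the other 15 pellets held 54807 to 234423. mt-Nd1 had 12949 CPM there against 311, 684 and 731 CPM in the other 3 pellets of the condition. The library was also unusual outside the mitochondrial genome. On an axis drawn through 11026 other genes, with 0 at the mean sub-polysomal and 1 at the mean polysomal library of the other conditions, it lay at 0.379. Positions of the remaining polysomal libraries ran from 0.771 to 1.28 and those of sub-polysomal libraries from −0.11 to 0.17. The part of this shift in the mitochondrial values was not tested. The comparisons with ASP shSCR below are given with and without this pellet.

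In all conditions the 10 mRNAs took a far larger share of sub-polysomal than of polysomal counts. The sub-polysomal share was 4.52%, 4.57%, 6.50% and 6.22% of library counts in ASP shSCR, 4.63%, 5.13%, 5.05% and 7.54% in NoASP shSCR, 4.82%, 6.70%, 8.97% and 7.52% in ASP shGRIN2D, and 7.17%, 5.30%, 5.14% and 5.91% in ASP shDHPS. The polysomal share of the same pellets was 4.09%, 0.664%, 0.801% and 0.906% in ASP shSCR, 0.476%, 0.692%, 0.976% and 0.824% in NoASP shSCR, 0.311%, 1.06%, 1.13% and 0.661% in ASP shGRIN2D, and 0.331%, 0.492%, 0.391% and 0.795% in ASP shDHPS. No polysomal library reached the lowest sub-polysomal share, and ASP shSCR replicate 1 came nearest to it. The medians over 16 libraries were 5.61% and 0.744%, and the polysomal median was 0.692% without that pellet. The sub-polysomal mean was highest in ASP shGRIN2D (7.00% ± 1.73, SD, n = 4), but its pellets overlapped those of each other condition (5.45% ± 1.05 in ASP shSCR, 5.59% ± 1.32 in NoASP shSCR and 5.88% ± 0.919 in ASP shDHPS). The polysomal mean was lowest in ASP shDHPS (0.502% ± 0.206) and stood at 0.742% ± 0.212 in NoASP shSCR, 0.792% ± 0.382 in ASP shGRIN2D and 1.62% ± 1.65 in ASP shSCR. Without ASP shSCR replicate 1, the ASP shSCR mean was 0.790% ± 0.121 (SD, n = 3). Within a pellet, the sub-polysomal share was 5.17 to 21.6 times the polysomal share in 15 pellets and 1.10 times in ASP shSCR replicate 1. With the counts of the nuclear copies added, the medians were 7.81% and 0.984%.

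**Figure D1:**
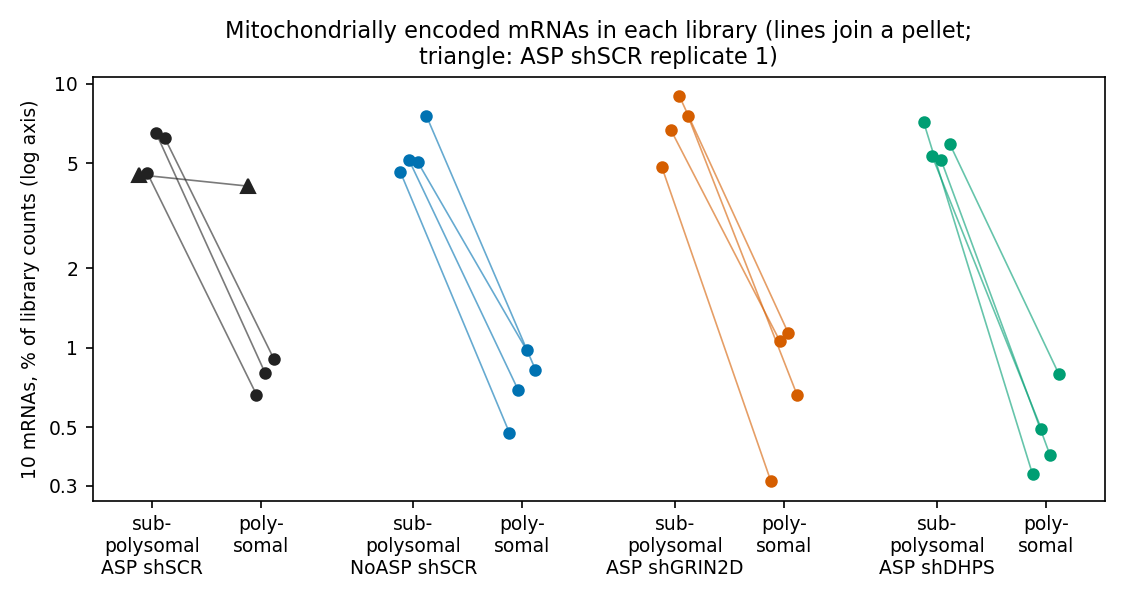
Percent of library counts held by the 10 mitochondrially encoded mRNAs (log axis) in the sub-polysomal and polysomal library of each pellet, with a line joining the libraries of a pellet and colours for the 4 conditions. In 15 pellets the line falls steeply, to polysomal shares of 0.311% to 1.13%, whereas ASP shSCR replicate 1 (triangles) goes from 4.52% to 4.09%.

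Among the members, levels per kilobase of mRNA were of like size except for mt-Nd5 and mt-Nd6. In the 16 sub-polysomal libraries, the medians as deposited were 9215 CPM per kb for mt-Cytb, 9111 for mt-Co1, 8092 for mt-Atp6 and 7398 for mt-Nd1. mt-Nd2 (5610), mt-Co3 (5488), mt-Nd4 (5379) and mt-Co2 (4053) followed. mt-Nd5 was lower than mt-Co2 in 16 of 16 libraries, with a median of 1227 CPM per kb, and mt-Nd6 was last in all, with 20.9 CPM per kb and 103 to 313 counts per library. Several neighbours in this order did not separate. mt-Cytb exceeded mt-Co1 in 11 of 16 libraries, mt-Nd2 exceeded mt-Co3 in 7 and mt-Co3 exceeded mt-Nd4 in 9. The upper part of the order rests on how reads were divided with the nuclear copies. With the copies added, mt-Atp6 (17933 CPM per kb), mt-Co3 (15427) and mt-Co2 (15322) came first, and mt-Co2 exceeded mt-Co1 (9876) in 16 of 16 libraries.

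**Figure D2:**
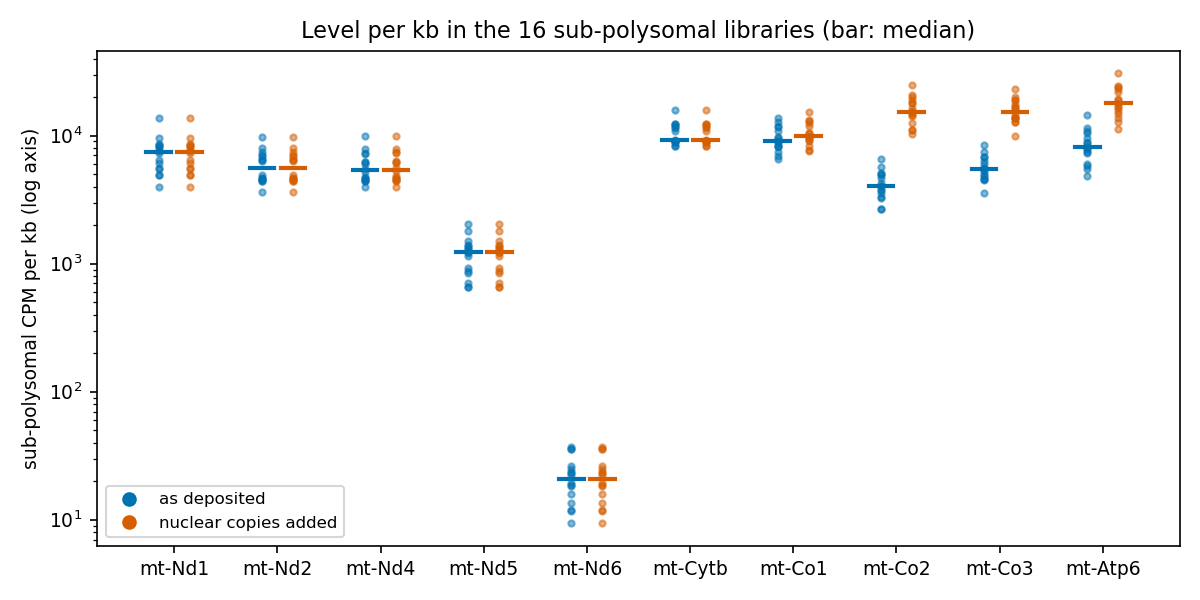
Sub-polysomal level of each mRNA in CPM per kb (log axis), with a point for each of 16 libraries and a bar at the median, as deposited (blue) and with the counts of nuclear copies added (orange). mt-Co2 moves from 4053 to 15322, mt-Co3 from 5488 to 15427 and mt-Atp6 from 8092 to 17933, while mt-Nd5 (1227) and mt-Nd6 (20.9) stay lowest.

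The ratio of polysomal to sub-polysomal RNA, tested in a model that pairs the fractions of a pellet, was below 1 for all 10 mRNAs in each condition (edgeR, adjusted p from 3.3e-09 to 0.0019). Of all genes, 18.9% were called lower in ASP shSCR (20.8% higher, 39.7% in either direction) and 20.6% in NoASP shSCR (23.7% and 44.3%). In ASP shGRIN2D the share lower was 20.4% (23% and 43.5%), and in ASP shDHPS it was 21.3% (21.8% and 43.1%). The median log2 ratio of the members was −2.62 in ASP shSCR, −3.28 in NoASP shSCR, −3.60 in ASP shGRIN2D and −3.80 in ASP shDHPS, and that of all genes was −0.04, 0, 0 and −0.09. With ASP shSCR replicate 1 left out, all 10 remained called in ASP shSCR and the median was −3.37 (range −3.90 to −1.66). In 15 pellets every member was below 0, and at most 0.633% of the 10909 genes with a mean of at least 50 counts lay below the members' median. In ASP shSCR replicate 1, the median was −0.48 and 26.7% of those genes lay below it.

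mt-Nd1 showed how much that pellet carried. Its log2 ratio was 1.46, −4.57, −3.54 and −3.42 in the ASP shSCR pellets, −4.24, −4.14, −2.56 and −3.31 in NoASP shSCR, −4.01, −3.38, −4.18 and −3.90 in ASP shGRIN2D and −4.55, −3.70, −4.05 and −3.33 in ASP shDHPS. The first ASP shSCR pellet is the only positive value and the remaining 15 overlap between conditions. The fitted ASP shSCR ratio was −2.91 (SE 0.62, adjusted p = 0.00047) with this pellet and −3.90 (SE 0.31, adjusted p = 5.2e-11) without it. mt-Atp6 was the other member above 0 in that pellet (0.30), with −3.63, −3.16 and −3.09 in the other 3. mt-Cytb, the member with the smallest adjusted p in ASP shSCR (7.1e-07), had ratios of −1.05, −2.88, −3.12 and −2.84 there. Its values in the other conditions were between −4.52 and −2.43, with the lowest in ASP shDHPS replicate 1 and the highest in NoASP shSCR replicate 3.

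mt-Nd2, a further complex I mRNA, had log2 ratios of −0.17, −3.93, −3.52 and −3.48 in ASP shSCR, −3.95, −3.69, −2.59 and −3.52 in NoASP shSCR, −4.25, −3.44, −3.71 and −4.06 in ASP shGRIN2D and −5.06, −3.99, −4.14 and −3.61 in ASP shDHPS. It was the lowest of the 10 in 5 pellets, and the value of −5.06 in ASP shDHPS replicate 1 was the lowest of any member. The fitted ratios of mt-Nd4, the partner of mt-Nd5 in the proton-pumping arm, ran from −3.96 in ASP shDHPS to −2.70 in ASP shSCR, or −3.39 in ASP shSCR without replicate 1. In complex IV, mt-Co1, the catalytic subunit, had ratios of −0.13, −2.52, −3.01 and −2.44 in ASP shSCR and −4.33, −3.18, −3.37 and −2.39 in ASP shDHPS, so the ranges overlapped. mt-Co2, which takes electrons from cytochrome c, was lower than mt-Co1 in the fit of each condition, at −2.94 against −2.08 in ASP shSCR and −4.09 against −3.32 in ASP shDHPS. mt-Co3 lay between them at −2.74 and −3.65. Without ASP shSCR replicate 1, the ASP shSCR ratios were −3.70 for mt-Co2, −2.72 for mt-Co1 and −3.44 for mt-Co3, in the same order. The difference between these mRNAs was not tested, and mt-Co2 and mt-Co3 are the members whose nuclear copies held the largest share of the counts. With copies added, all 10 members were still called lower in each condition, and the median over members was −2.65 in ASP shSCR (−3.38 without replicate 1) and −3.80 in ASP shDHPS.

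mt-Nd6, the member with the fewest counts and the only one read from the minus strand, was the least depleted from polysomes. The libraries hold poly(A) RNA, and how fully they captured mt-Nd6 was not tested. Its log2 ratio was −0.45, −1.53, −1.72 and −1.47 in ASP shSCR, −0.48, −1.01, −1.06 and −1.14 in NoASP shSCR, −1.75, −2.30, −2.23 and −1.78 in ASP shGRIN2D, and −2.78, −1.84, −2.42 and −3.05 in ASP shDHPS. Whether the counting used strand is not given in the sources used here, so RNA from the opposite strand of mt-Nd6 cannot be told apart from the mRNA. All ASP shGRIN2D and ASP shDHPS pellets were below all ASP shSCR pellets, but for ASP shGRIN2D only just (highest −1.75, against −1.72 as the lowest in ASP shSCR). Neither difference passed the threshold in edgeR. No share of all genes with such a gap between pellets is given here or elsewhere in the text. mt-Nd6 had the highest ratio of the 10 in 14 of 16 pellets, and the exceptions were mt-Nd1 in ASP shSCR replicate 1 and mt-Co1 in ASP shDHPS replicate 4. mt-Co1 had a median rank of 9 from the lowest and mt-Nd5 of 8, whereas mt-Co2 had a median rank of 2 and mt-Nd1, mt-Nd2 and mt-Atp6 of 3. The ratio did not follow mRNA length over all members. Pearson's r of length with the mean ratio over 15 pellets was −0.01 over the 10 members (Spearman's rho 0.24). Over the 13 mRNAs of the mitochondrial genome it was 0.27 (rho 0.40). It was 0.80 (rho 0.70) over the 9 members that remain once mt-Nd6 is set aside, a choice made after its values were seen, and in ASP shSCR replicate 1 these 9 gave −0.29 and −0.45. These are descriptions across genes that share libraries and, for neighbours in the genome, precursor RNA.

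**Figure D3:**
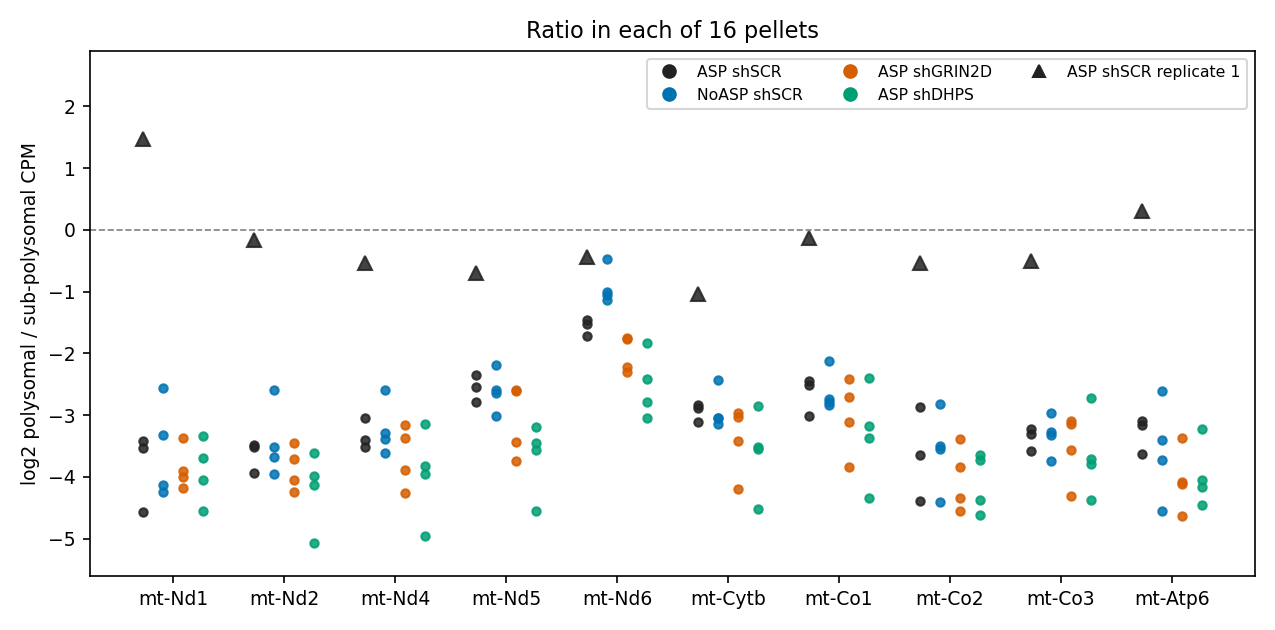
Log2 ratio of polysomal to sub-polysomal CPM of each mRNA in the 16 pellets, coloured by condition, with ASP shSCR replicate 1 as triangles and a dashed line at 0. Points lie between −5.06 and −0.48 apart from the triangles, which lie between −1.05 and 1.46, and mt-Nd6 sits highest among the circles.

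To learn whether Dhps knockdown moved the mRNAs between fractions, its ratios were set against ASP shSCR. All 10 estimates were negative, from −1.57 (mt-Nd5) to −0.92 (mt-Co3) with a median of −1.24, and the median of all genes was −0.01. No member passed the threshold, and 0.208% of all genes were called (37 lower and 0 higher). An unadjusted p under 0.05 was found for 8 members and for 13.6% of all genes. DESeq2's Wald test called 2 members, mt-Nd5 and mt-Nd6, and 3.74% of all genes. mt-Nd5 ratios were −0.70, −2.55, −2.79 and −2.35 in ASP shSCR and −4.55, −3.56, −3.46 and −3.19 in ASP shDHPS. The difference was −1.57 (SE 0.40, edgeR adjusted p = 0.075). The groups did not overlap, but the share of all genes with such a gap was not counted. mt-Nd6 gave −1.24 (SE 0.34, adjusted p = 0.091). After removal of ASP shSCR replicate 1, the median over members was −0.61 (range −1.09 to −0.03), 2 members had an unadjusted p under 0.05 (13.6% of all genes), and the smallest adjusted p was 0.11. mt-Nd5 then differed by −1.09 and mt-Nd6 by −0.93.

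Grin2d knockdown was compared with ASP shSCR in the same way. The 10 estimates were again negative, from −1.51 (mt-Atp6, SE 0.58) to −0.72 (mt-Nd6, SE 0.33) with a median of −0.96. None passed (edgeR adjusted p = 1 for each), 4 had an unadjusted p under 0.05 (3.22% of all genes), DESeq2 called 0, and both tools called 0% of all genes. Without ASP shSCR replicate 1 the median was −0.34, mt-Atp6 was at −0.72, mt-Nd1 moved to 0.0069, and 0 members had an unadjusted p under 0.05 (1.99% of all genes). The effect of aspartate, ASP shSCR minus NoASP shSCR, was positive for 9 mRNAs and negative for mt-Nd6 (−0.38, SE 0.34). The median was 0.54, with mt-Atp6 at 1.03 (SE 0.58) as the largest. None passed (edgeR adjusted p = 1), 0 had an unadjusted p under 0.05 (1.93% of all genes), DESeq2 called 0, and both tools called 0% of all genes. With ASP shSCR replicate 1 left out, the median was −0.08, 8 of 10 were negative, and mt-Atp6 was at 0.26. mt-Nd6 was then the farthest from 0 at −0.67 (SE 0.33, adjusted p = 1) and the only member with an unadjusted p under 0.05 (1.39% of all genes). The 3 comparisons share the ASP shSCR pellets, so their values are not independent of each other.

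**Figure D4:**
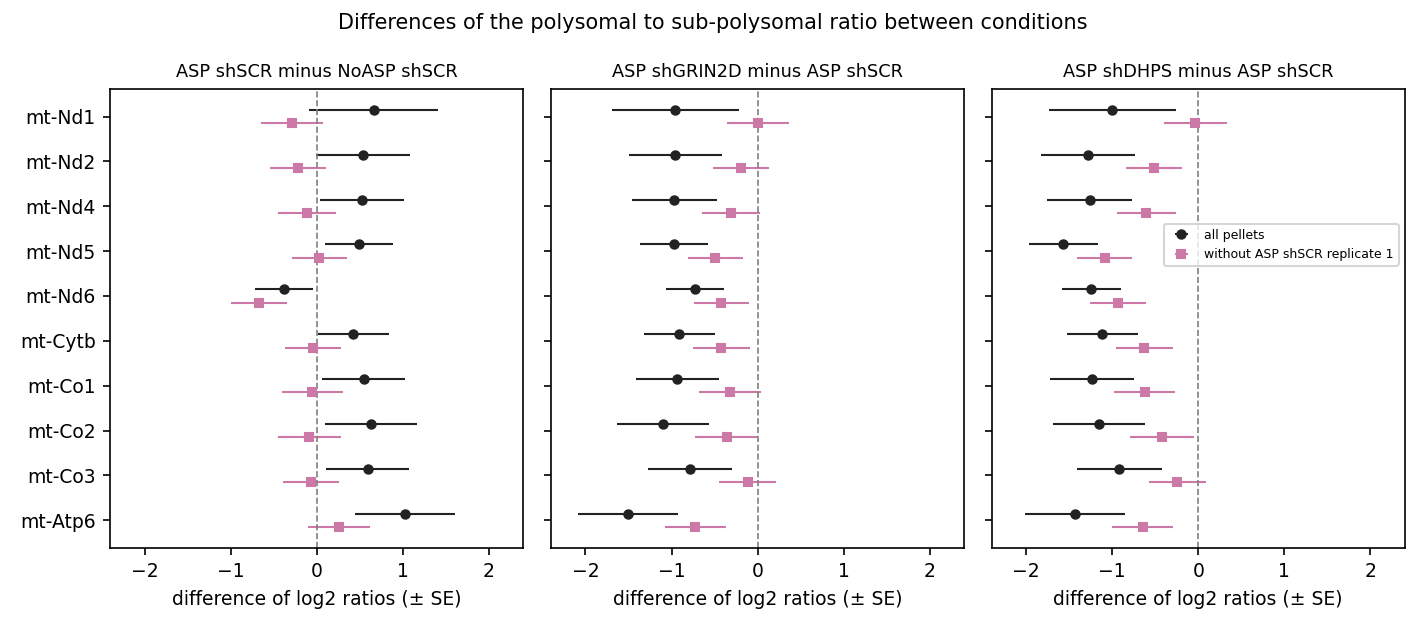
Fitted difference of the log2 ratio between conditions for each mRNA, in 3 panels, with bars of 1 SE, for all pellets (black circles) and without ASP shSCR replicate 1 (pink squares), and a dashed line at 0. The medians move from 0.54 to −0.08, from −0.96 to −0.34 and from −1.24 to −0.61 when that pellet is left out.

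Levels were then compared within each fraction. In the sub-polysomal fraction, no member passed in edgeR or DESeq2. The median log2 difference was 0.06 for ASP shSCR minus NoASP shSCR (range −0.10 to 0.65), 0.33 for ASP shGRIN2D minus ASP shSCR (0.05 to 0.67) and −0.03 for ASP shDHPS minus ASP shSCR (−0.21 to 0.34). All 10 estimates were above 0 for ASP shGRIN2D, and all but that of mt-Co3 (−0.06) were so without ASP shSCR replicate 1. In the 3 comparisons 1, 3 and 0 members had an unadjusted p under 0.05 (4.91%, 11% and 16% of all genes). Without ASP shSCR replicate 1 the medians were 0.16, 0.22 and −0.08, and the counts were 1, 0 and 0 (4.48%, 10.3% and 13.6% of all genes). The share of all genes called was 0%, 0.315% (0.107% higher and 0.208% lower) and 1.41% (0.439% higher and 0.974% lower) in edgeR and 0.00563%, 1.3% and 3.67% in DESeq2. The largest sub-polysomal difference was mt-Nd5 in ASP shGRIN2D. It had 1298, 1202, 2495 and 2264 CPM in ASP shSCR and 2212, 2382, 3736 and 3264 CPM in ASP shGRIN2D, so the groups overlapped. Its difference was 0.67 (SE 0.25, edgeR adjusted p = 0.30). mt-Nd6 had 4.88, 9.48, 10.0 and 18.6 CPM in ASP shSCR and 6.16, 6.08, 7.00 and 8.32 CPM in NoASP shSCR, a difference of 0.65 (SE 0.28, adjusted p = 0.85). With the first ASP shSCR pellet left out, these differences were 0.53 for mt-Nd5 and 0.90 for mt-Nd6 (adjusted p = 0.50 and 0.91).

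In the polysomal fraction, the medians over the members lay further from 0 and came nearer to it without the same pellet. mt-Nd6 moved least. Its polysomal difference was −0.89 with that pellet and −0.88 without it for ASP shDHPS minus ASP shSCR, −0.37 and −0.38 for ASP shGRIN2D minus ASP shSCR, and 0.25 and 0.23 for ASP shSCR minus NoASP shSCR. For ASP shDHPS minus ASP shSCR all 10 were negative, from −3.35 (mt-Nd1) to −0.89 (mt-Nd6), with a median of −1.69. All 10 had an unadjusted p under 0.05, as did 16.4% of all genes, and none passed (edgeR adjusted p 0.11 to 0.16), where 0.158% of all genes were called lower and 0.0113% higher (0.169% in all). DESeq2 called 2 members, mt-Nd5 and mt-Cytb, and 3.12% of all genes. mt-Cytb had 5025, 1291, 1507 and 1751 CPM in ASP shSCR and 617, 907, 825 and 1445 CPM in ASP shDHPS. The highest ASP shDHPS pellet lay above the lowest ASP shSCR pellet. mt-Nd5 had 801, 205, 360 and 444 CPM in ASP shSCR and 108, 176, 153 and 263 CPM in ASP shDHPS, and there too the groups overlapped. After removal of ASP shSCR replicate 1, the median was −0.64 (−0.93 to −0.40) and 2 members had an unadjusted p under 0.05 (13.8% of all genes). For ASP shGRIN2D minus ASP shSCR the median was −1.21 with that pellet and −0.05 without it, and 5 members against 0 had an unadjusted p under 0.05 (9.06% and 5.26% of all genes). For ASP shSCR minus NoASP shSCR it was 1.33 and 0.05, with 6 and 0 members (7.75% and 1.59% of all genes). No member passed in these 2 comparisons in edgeR or DESeq2, where edgeR called 0.0169% and 0% of all genes and DESeq2 0.389% and 0.00563%.

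The makeup of the mitochondrial counts, as deposited, differed between the fractions. Gm28661 took a median of 73.9% of the counts of its pair with mt-Co2, and the makeup with copies added is not given. mt-Co1 made up a median of 23.6% of the members' counts in sub-polysomal libraries (20.3% to 28.9%) and 31.99% in the polysomal libraries other than ASP shSCR replicate 1 (26.4% to 36.7%). mt-Nd1 went from 11.0% to 8.22%, mt-Nd2 from 9.48% to 6.94% and mt-Atp6 from 9.64% to 7.00%. ASP shSCR replicate 1 had neither makeup. mt-Nd1 made up 27.3% of its polysomal counts (5.40% to 11.2% in the other 15), mt-Cytb 10.6% (18.1% to 25.5%) and mt-Nd5 1.69% (3.30% to 6.11%). In these 3 genes it also lay outside the range of the 16 sub-polysomal libraries.

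**Figure D5:**
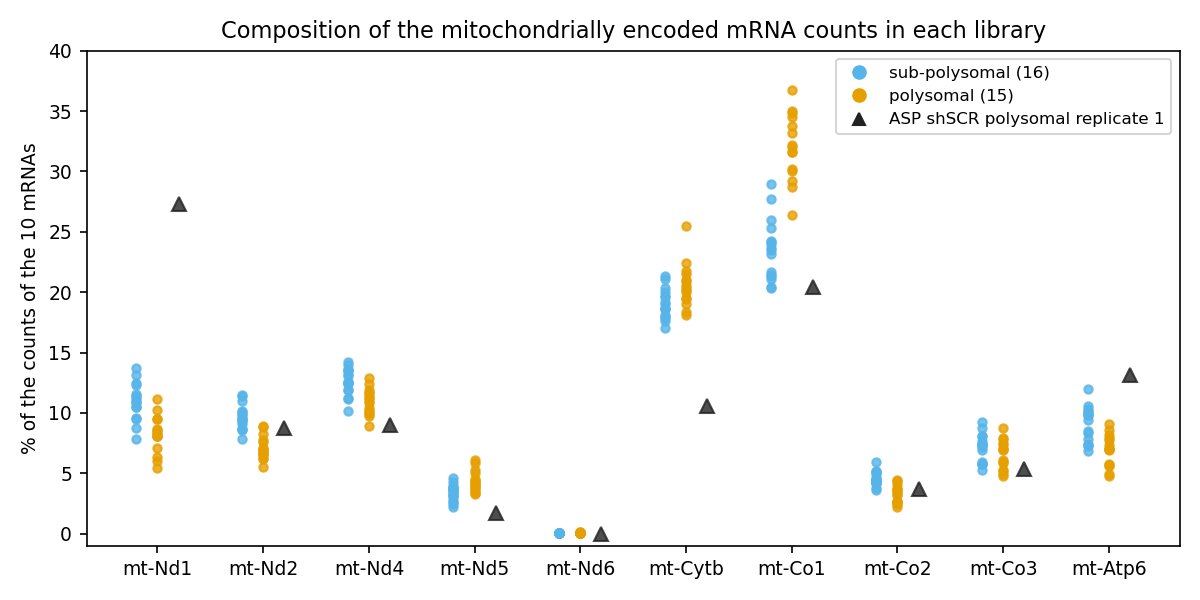
Percent of the deposited counts of the 10 mRNAs, without nuclear copies, held by each mRNA. Shown are the 16 sub-polysomal libraries (blue), 15 polysomal libraries (orange) and the polysomal library of ASP shSCR replicate 1 (triangles). mt-Co1 is higher in the polysomal libraries (median 31.99% against 23.6%), and the triangle for mt-Nd1 stands at 27.3%, above every other library.

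The other mRNAs of the mitochondrial genome followed the members closely and its rRNAs more loosely. Over 32 libraries, Pearson's r of log2 CPM with the members' mean was 0.99 for mt-Atp8, 0.94 for mt-Nd3 and mt-Nd4l, 0.89 for mt-Rnr2 and 0.78 for mt-Rnr1, as a description of libraries that share their depth. mt-Atp8, which overlaps mt-Atp6, had log2 ratios of 0.67, −3.89, −3.38 and −2.92 in ASP shSCR, and its 12 values in the other conditions ran from −5.00 to −2.48. mt-Nd3 ran from −6.56 to −1.85 outside ASP shSCR replicate 1 (0.70 there), and mt-Nd4l was negative in all 16 pellets. mt-Rnr1, the small rRNA of the mitochondrial ribosome, had 2.53, −2.58, −3.24 and −2.03 in ASP shSCR, and mt-Rnr2, the large rRNA, 1.53, −3.68, −3.34 and −2.17. In NoASP shSCR the small rRNA was at −0.66, −1.65, −0.14 and −1.64, where its fitted ratio was −1.02 (SE 0.54, edgeR adjusted p = 0.13) and the median over the members −3.28. It was at −1.57, −3.21, −2.94 and −0.76 in ASP shGRIN2D and at −3.41, −3.06, −2.22 and −4.91 in ASP shDHPS. Both rRNAs were thus above 0 only in ASP shSCR replicate 1. Poly(A) libraries hold only some of these rRNAs.

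Nuclear genes that serve the same complexes had ratios nearer to 0 than the mitochondrial mRNAs, by the medians of their lists. The counts below stand beside 20.8% of all genes higher and 18.9% lower in ASP shSCR. Of 37 complex I subunits, 5 were higher and 16 lower in polysomes in ASP shSCR (edgeR), with a median of −0.27. Ndufa9 (1.88) and Ndufs1 (1.77) were higher and Ndufb1 (−1.76) lower. Of 9 complex III subunits, 2 were higher (Uqcrc2 1.51, Uqcrc1 1.27) and 4 lower, with a median of 0.06. Of 11 complex IV subunits, 0 were higher and 6 lower, with a median of −0.89 and Cox8a lowest at −2.01. Of 15 complex V subunits, 2 were higher (Atp5a1 1.20, Atp5b 1.06) and 5 lower (Atp5e −1.22), with a median of 0.0020. Without ASP shSCR replicate 1 the higher and lower counts were 7 and 13, 2 and 4, 0 and 5, and 4 and 4, with medians of −0.19, 0.22, −0.66 and 0.15. In ASP shDHPS the counts were 14 higher and 12 lower in complex I, 5 and 2 in complex III, 1 and 5 in complex IV and 7 and 2 in complex V, beside 21.8% and 21.3% of all genes. NoASP shSCR had 8 and 14, 2 and 4, 0 and 6, and 2 and 3 (23.7% and 20.6% of all genes), and ASP shGRIN2D 10 and 14, 2 and 4, 0 and 6, and 4 and 3 (23% and 20.4%). In the fit without ASP shSCR replicate 1, ASP shDHPS had 15 and 12, 5 and 4, 1 and 6, and 7 and 2 (22.1% and 22.7% of all genes). NoASP shSCR then had 7 and 16, 3 and 4, 0 and 6, and 2 and 5 (23.4% and 22.3%). ASP shGRIN2D had 10 and 15, 2 and 4, 0 and 6, and 5 and 4 (23.3% and 21.6%). These counts were not tested against each other. In ASP shDHPS minus ASP shSCR, 0 members of these 4 lists passed (0.208% of all genes did), and the list medians were 0.44, 0.48, 0.29 and 0.47, where the mitochondrial mRNAs had −1.24. With ASP shSCR replicate 1 left out, they were 0.18, 0.28, 0.06 and 0.28, beside −0.61. In ASP shGRIN2D minus ASP shSCR they were 0.20, 0.26, 0.05 and 0.23, where the mitochondrial mRNAs had −0.96. Without that pellet they were −0.07, −0.0023, −0.15 and 0.03, beside −0.34.

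Nuclear genes for RNA processing and translation in mitochondria were more often higher than lower in polysomes. In ASP shSCR, 2 of 7 transcription genes were higher and 0 lower (Mterf2 2.04, a transcription termination factor), near the share of all genes (20.8% higher). The number higher was 5 of 7 in NoASP shSCR, 3 of 7 in ASP shGRIN2D and 5 of 7 in ASP shDHPS. Of all genes, 23.7%, 23% and 21.8% were higher there. In ASP shDHPS 1 of the 7 was lower, beside 21.3% of all genes. These counts were not tested against each other. In ASP shSCR there were 8 higher and 2 lower of 11 RNA processing genes (Fastkd2 1.33, Fastkd5 1.14, Fastkd1 1.00), and the lower genes were Fastk (−0.83) and Tbrg4 (−0.53). Of 7 stability and decay genes, 4 were higher and 2 lower. Those higher include Lrpprc (1.16), which stabilizes mitochondrial mRNAs, and the degradation enzymes Pnpt1 (0.87) and Supv3l1 (0.77). Those lower were Rexo2 (−0.65, or −1.05 without ASP shSCR replicate 1), an oligoribonuclease, and Grsf1 (−0.53, or −0.61), an RNA-binding protein of mitochondrial RNA granules. The lower genes of both lists were named after their values were seen. Of 12 translation factors, 7 were higher and 0 lower. Taco1 (1.65), which activates mt-Co1 translation, led, followed by the elongation factor Gfm1 (1.54) and the initiation factor Mtif2 (1.20). Of 7 regulators of mitochondrial biogenesis, Gabpa (0.72, or 0.83 without ASP shSCR replicate 1) was higher and Esrra (−1.36, or −1.95) lower. When ASP shSCR replicate 1 was left out, these 5 lists had the same counts, apart from the translation factors, of which Oxa1l (−0.74, edgeR adjusted p = 0.038) was then lower. In that fit, ASP shDHPS had 5 higher and 2 lower of 11 RNA processing genes, and 6 higher and 0 lower of 12 translation factors. Of all genes, 22.1% were higher and 22.7% lower there. NoASP shSCR and ASP shGRIN2D each had 8 and 2 for RNA processing, and 8 and 0 for translation factors. All genes had 23.4% and 22.3% in NoASP shSCR and 23.3% and 21.6% in ASP shGRIN2D. In the 3 differences between conditions, 0 genes of these 5 lists passed in edgeR, where at most 0.208% of all genes did. In ASP shDHPS minus ASP shSCR, Tufm, the mitochondrial elongation factor Tu, was at 0.78 (SE 0.28, adjusted p = 0.21) and Tfam, which packages mitochondrial DNA, at −0.23 (SE 0.38, adjusted p = 0.84), or 0.82 and −0.49 when ASP shSCR replicate 1 was left out.

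Nuclear noncoding RNAs, which are not translated, were set beside the mitochondrial mRNAs. Malat1 and Neat1, both retained in the nucleus, had ratios of −1.71 (SE 0.31, adjusted p = 6.4e-05) and −1.29 (SE 0.21, adjusted p = 2e-05) in ASP shSCR in edgeR and of −3.27 and −1.90 in ASP shDHPS. Without replicate 1 the ASP shSCR ratios were −1.99 and −1.50. Tug1 (−0.31, SE 0.18) and Kcnq1ot1 (0.24, SE 0.69, with a mean of only 16.8 counts) did not pass in ASP shSCR, and Tug1 was at −0.69 (adjusted p = 0.0028) in ASP shDHPS. Without ASP shSCR replicate 1, Tug1 was at −0.25 and Kcnq1ot1 at 0.48 in ASP shSCR. In ASP shDHPS minus ASP shSCR, Tug1 was at −0.38 (SE 0.26), Neat1 at −0.61 (SE 0.29) and Malat1, chosen here after its value was seen, at −1.56 (SE 0.43, adjusted p = 0.094), none past the threshold. Without ASP shSCR replicate 1 Malat1 was at −1.31. Outside the mitochondrial genome, the genes whose log2 CPM most resembled the members' mean over 32 libraries were Gm28661 (Pearson's r 0.994), Gm10925 (0.991), Gm28437 (0.986), Mosmo (0.981) and Gm13340 (0.979). Over the 30 libraries without ASP shSCR replicate 1, their r was 0.979 to 0.995. Gm28661, Gm10925 and Gm28437 are the copies named above, and Gm13340 is a weaker copy of mt-Co1. Mosmo, a gene known as a modulator of Smoothened signalling, shared no 31-base stretch with a member. Its level was 34.3, 48.0, 46.8 and 37.0 CPM in sub-polysomal and 48.2, 7.35, 6.21 and 12.4 CPM in polysomal ASP shSCR. ASP shSCR replicate 1 was again the high polysomal library. The 32 libraries differ above all by fraction, which every such correlation shares.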

How the data were processed

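The deposited table gives counts per gene for 32 libraries. According to the labels and the study's methods, the authors trimmed reads with Trim Galore 0.6.6, checked them with FastQC 0.11.9, aligned them to GRCm39 with STAR 2.6.1, estimated gene counts with Salmon 1.4.0, rounded them to whole numbers and kept a gene when at least 3 replicates of some condition and fraction expressed it. The authors' second table of results, made with DESeq2 1.34.0 (log2 differences, p-values and set scores), was not used. Libraries were made with a stranded poly(A) kit, and how strand entered the counting is not given in the sources used here.

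All 17757 genes were fitted in R 4.3.3 with edgeR 4.0.16 (TMM, quasi-likelihood F-test, two-sided, Benjamini-Hochberg over all genes of a comparison, threshold 0.05). In the ratio model every pellet (16) had its own term, because its fractions are matched, and every condition had a log2 ratio of polysomal over sub-polysomal RNA. Levels were fitted within each fraction by condition. DESeq2 1.42.0 was an alternative, as were other scalings, a minimum of 10 counts in every library, fits without the pellet term, with the replicate number as a block or with only the compared conditions, and each pellet left out. Pellet ratios used a prior count of 2. The steps were tested on simulated data. No libraries were identical (highest r 0.990). Nothing in the sources ties a replicate number to a shared batch across conditions. Deviations of pellets with the same number correlated with a median of 0.125 (24 pairs) and those with different numbers with −0.03 (72 pairs).

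Positions, lengths and sequences came from GENCODE M21 on GRCm38, because no GRCm39 annotation was used here. Copies were genes outside the mitochondrial genome with at least 90% of their 31-base stretches in a member. Named genes were all members, other genes of the mitochondrial genome, Dhps and Grin2d, up to 3 genes per list with the largest called value and a mean of at least 50 counts (or the 2 most abundant where none passed), and the 5 genes most like the members' mean. The members and lists were chosen with earlier results of these data known.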

Additional observations from a re-analysis of the deposited data

Results flagged for a closer look

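In groups of 4 pellets, a value was picked out when its gap to the nearest other pellet, as a share of the group's range, exceeded Dixon's 95% critical value. This held for 22 values in 128 groups, and chance picks out about 1 in 20 groups, or 6.4. The groups share libraries, and ratios reuse the counts of the levels. A single library can therefore flag many values, and 22 and 6.4 do not compare independent groups. Of the 22, 15 were in the polysomal level or ratio of ASP shSCR, and 14 of these came from replicate 1. The share of the 10 mRNAs in the polysomal library of that replicate was 4.09% (0.664% to 0.906% in the other 3). Its polysomal levels were 12949 CPM for mt-Nd1 (311 to 731 in the others), 4149 for mt-Nd2 (319 to 657), 4262 for mt-Nd4 (514 to 920), 5025 for mt-Cytb (1291 to 1751), 9717 for mt-Co1 (2011 to 2476), 1773 for mt-Co2 (153 to 380), 2545 for mt-Co3 (441 to 503) and 6254 for mt-Atp6 (456 to 625). Its log2 ratios were −0.17 for mt-Nd2, −0.54 for mt-Nd4, −1.05 for mt-Cytb, −0.51 for mt-Co3 and 0.30 for mt-Atp6. The remaining ASP shSCR value was mt-Nd6 in polysomal replicate 4, at 6.64 CPM (2.97 to 3.55 in the others).

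The other values were spread over 3 libraries or pellets. In NoASP shSCR replicate 3, the log2 ratio was −2.13 for mt-Co1 (−2.84 to −2.73 in the others) and −2.43 for mt-Cytb (−3.15 to −3.04). In the sub-polysomal library of NoASP shSCR replicate 4, which had the fewest counts of all (12870563), mt-Nd2 was at 8369 CPM (4613 to 5094), mt-Nd4 at 9920 CPM (6045 to 6559) and mt-Cytb at 13294 CPM (10043 to 10467). In ASP shDHPS replicate 4, mt-Nd6 was at 18.6 CPM in the sub-polysomal library (11.7 to 12.1) and mt-Nd1 at 690 CPM in the polysomal library (307 to 363).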

How the results depend on the processing

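The lower polysomal to sub-polysomal ratio of all 10 mRNAs in each condition held under every alternative run with a single exception. Without the pellet term, mt-Nd1 in ASP shSCR was at −0.93 (adjusted p = 0.27). All other calls of 0 members held except in 2 comparisons. For the ratio of ASP shDHPS minus ASP shSCR, 1 member passed with library totals only (mt-Nd5, −1.68, adjusted p = 0.047), 2 in DESeq2 (mt-Nd5 −1.52, mt-Nd6 −1.19), and 0 to 1 with a pellet left out, the 1 being without ASP shGRIN2D replicate 1. For the polysomal level of the same contrast, 2 passed in DESeq2 (mt-Nd5 −1.48, mt-Cytb −1.47) and 0 to 3 with a pellet left out, the 3 without ASP shSCR replicate 3. Over all genes, DESeq2 called 664 for the ratio and 554 for the polysomal level of this contrast. Leaving out a pellet gave 0 to 159 and 0 to 304 calls over all genes. The cause of the changed member calls was not tested.

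Counts over all genes moved more. The values of the nuclear gene lists without ASP shSCR replicate 1 were an alternative chosen after seeing the data. For the ratio of ASP shDHPS minus ASP shSCR, 37 genes became 0 with DESeq2 size factors, without the pellet term or with only the compared conditions, 266 with at least 10 counts, 184 with TMM within each fraction, 664 in DESeq2 and 0 to 159 with a pellet left out. Sub-polysomal calls went from 56 to 231 (ASP shGRIN2D) and from 251 to 652 (ASP shDHPS) in DESeq2, and from 0 to 1 for aspartate. With a pellet left out they were 23 to 64 and 80 to 370. Polysomal calls went from 30 to 4 with library totals, 554 in DESeq2 and 1 with only the compared conditions for ASP shDHPS, from 3 to 7 with DESeq2 size factors, 6 with at least 10 counts, 69 in DESeq2 and 0 with only the compared conditions for ASP shGRIN2D, and from 0 to 1 in DESeq2 for aspartate. With a pellet left out the polysomal calls were 0 to 304 for ASP shDHPS and 0 to 98 for ASP shGRIN2D.

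The replicate number as a block, which pairs no pellets by design, gave 231 genes for the ratio of ASP shDHPS minus ASP shSCR, 195 and 758 sub-polysomal calls for ASP shGRIN2D and ASP shDHPS, and 27 and 405 polysomal calls, with no member called. It turned the sub-polysomal difference of mt-Nd2 in ASP shDHPS to 0.019.

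Adding the nuclear copies, an alternative chosen after seeing the data, moved the mean share in both fractions. The sub-polysomal mean became 7.69% in ASP shSCR, 8.05% in ASP shDHPS, 9.64% in ASP shGRIN2D and 7.86% in NoASP shSCR. The polysomal mean became 2.18%, 0.678%, 1.05% and 1.02% in the same order. The number of members called in each comparison stayed the same. Scaling by library totals turned sub-polysomal differences near 0. For ASP shSCR minus NoASP shSCR these were mt-Nd1 −0.0059, mt-Nd2 −0.020, mt-Nd5 −0.040, mt-Co1 −0.017, mt-Co2 −0.0020 and mt-Cytb −0.030, and for ASP shDHPS minus ASP shSCR mt-Nd2 0.042, mt-Cytb 0.042 and mt-Atp6 0.017.

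With a pellet left out, some differences between conditions changed sign. Ranges for the ratio of ASP shSCR minus NoASP shSCR were −0.29 to 1.39 (mt-Nd1), −0.22 to 0.94 (mt-Nd2), −0.12 to 0.84 (mt-Nd4), −0.046 to 0.65 (mt-Cytb), −0.054 to 0.88 (mt-Co1), −0.088 to 1.17 (mt-Co2) and −0.066 to 0.92 (mt-Co3), and for ASP shGRIN2D minus ASP shSCR −1.67 to 0.0069 (mt-Nd1). Polysomal ranges were −0.15 to 3.15 (mt-Nd1), −0.11 to 1.89 (mt-Nd2), −0.14 to 1.51 (mt-Nd4) and −0.045 to 0.39 (mt-Nd6) for ASP shSCR minus NoASP shSCR, and −1.15 to 0.16 (mt-Co1), −1.46 to 0.19 (mt-Nd4) and −0.80 to 0.13 (mt-Nd5) for ASP shGRIN2D minus ASP shSCR. Sub-polysomal ranges for ASP shSCR minus NoASP shSCR were −0.0063 to 0.27 (mt-Nd1), −0.062 to 0.30 (mt-Nd2), −0.16 to 0.16 (mt-Nd4), −0.16 to 0.32 (mt-Nd5), −0.036 to 0.14 (mt-Cytb), −0.085 to 0.15 (mt-Co1) and −0.23 to 0.045 (mt-Atp6). For ASP shDHPS minus ASP shSCR they were −0.15 to 0.10 (mt-Nd2), −0.17 to 0.054 (mt-Cytb) and −0.21 to 0.066 (mt-Atp6), and for ASP shGRIN2D minus ASP shSCR −0.068 to 0.50 (mt-Nd1) and −0.14 to 0.24 (mt-Co3).

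mt-Nd6 had 28 to 313 counts per library. The SE of the ratio differences was 0.33 to 0.34 for mt-Nd6 and 0.39 to 0.75 for the other members, and a difference of −1.57 (mt-Nd5, SE 0.40) was not called with 4 pellets a condition. The study's methods describe the pellets as independent. The p-values rest only on the spread between these pellets, which edgeR estimates for each gene with help from all genes.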
